A study of Mus musculus with 2 samples.

Results

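The nuclear genes of respiratory complexes III and IV and of the ATP synthase were compared between aged muscle of mice on calorie restriction (CR) and on a control diet. Members were taken by symbol from the deposited muscle table: names starting with Uqcr, Cox4 to Cox8, Cox10 to Cox19 or Atp5, together with Cyc1, Cycs, Bcs1l, Surf1, Sco1 and Sco2. Only loci that carry a single symbol were used. This gave 48 genes of 10543 in the table, and all 48 passed the filter at a mean of 1 FPKM (fragments per kilobase of transcript, scaled to the mapped fragments of a library). No single-symbol locus carried Cycs, Sco2, Cox7c, Atp5l or Atp5g2, and they were not analysed here. A pair of matches share only the name pattern. Cox4nb, also called Emc8, is the neighbour of Cox4i1 and encodes a subunit of a membrane complex of the endoplasmic reticulum. Atp5sl, also called Dmac2, is linked to complex I assembly.

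The tissue was thigh skeletal muscle of B6C3F1 hybrid mice aged 26 months. The control group ate the control diet, and the CR group ate 40% fewer calories for 25 months on a diet enriched in protein, vitamins and minerals. Poly(A) RNA of each group is represented by 1 library, so no difference below has a replicate check, a standard error or a p-value. The sources used here do not say how many mice a library holds. Sequencing depth is unknown. FPKM values are given in pairs, control before CR. A log2 ratio is that of (CR + 1) to (control + 1), and a fold is its linear form; the added 1 shrinks the ratios of weakly expressed genes. FPKM is scaled by length, so levels of different genes were set side by side within a library. How well this holds for short transcripts, such as the 360 nt of Cox8b beside fragments of about 200 nt, was not tested. The values sum to 12758512 and 13608849 FPKM over all loci, a high scale that the sources used here do not explain, so shares and orders of genes assume that it is the same for every gene of a library.

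The electron transport chain of the inner mitochondrial membrane passes electrons to oxygen and pumps protons, and the ATP synthase uses the proton gradient to make ATP. Complex III takes electrons from ubiquinol and hands them to cytochrome c through a catalytic core, and complex IV (cytochrome c oxidase) takes them from cytochrome c to oxygen. In complex IV the catalytic subunits are encoded by mitochondrial DNA, and the nuclear subunits surround them. The ATP synthase has a catalytic head in the matrix (F1), a central and a peripheral stalk, and a membrane part that holds the ring of c-subunits. Some complex IV subunits exist as a heart and skeletal muscle isoform and a ubiquitous isoform, encoded by separate genes. Muscle fibres rich in mitochondria, among them slow fibres, contain more of these complexes than fast glycolytic fibres.

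The CR library listed more transcript of most of these genes. Among the subunit genes the larger ratios lay mostly with small accessory subunits rather than with the complex III core, Cox4i1, Cox5a or F1. Catalytic subunits encoded by mitochondrial DNA are not among the 48 genes. Of 48 genes, 37 had a higher value in the CR library and 11 a lower one, against 47.9% higher among all 10533 genes that passed the filter. At a ratio of at least 1.5-fold higher there were 19 genes, against 16.4% of all genes. At least 2-fold higher were 6 genes (8.01% of all genes) and at least 2-fold lower was 1 gene (10.7% of all genes). The median log2 ratio over the 48 genes was 0.34, a fold of 1.27, and that over all genes was -0.03. Many of the 48 genes are short: their median coding length was 430.5 nt, against 1380 nt over all genes of known length. Of 331 other abundant genes (averaging 300 FPKM or more) of at most 450 nt, 77.6% were higher and 28.4% at least 1.5-fold higher. Their median log2 ratio was 0.36. The contrast with all genes alone thus does not set the 48 genes apart from other short genes, and not all 48 are short. With the median of other abundant genes in the same class of coding length subtracted, the median log2 ratio of the 48 genes was 0.24. After that subtraction 31 of the 48 were higher. The summed level of the 48 genes was 213610 and 301202 FPKM, which is 1.67% and 2.21% of the sum over all loci of the table. Levels kept much of their order: across the 33 subunit genes above 0 in both libraries, which share the same pair of libraries, Pearson's r of log2 FPKM was 0.95 and Spearman's rho 0.92. Atp5b ranked first in both libraries.

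**Figure D1:**
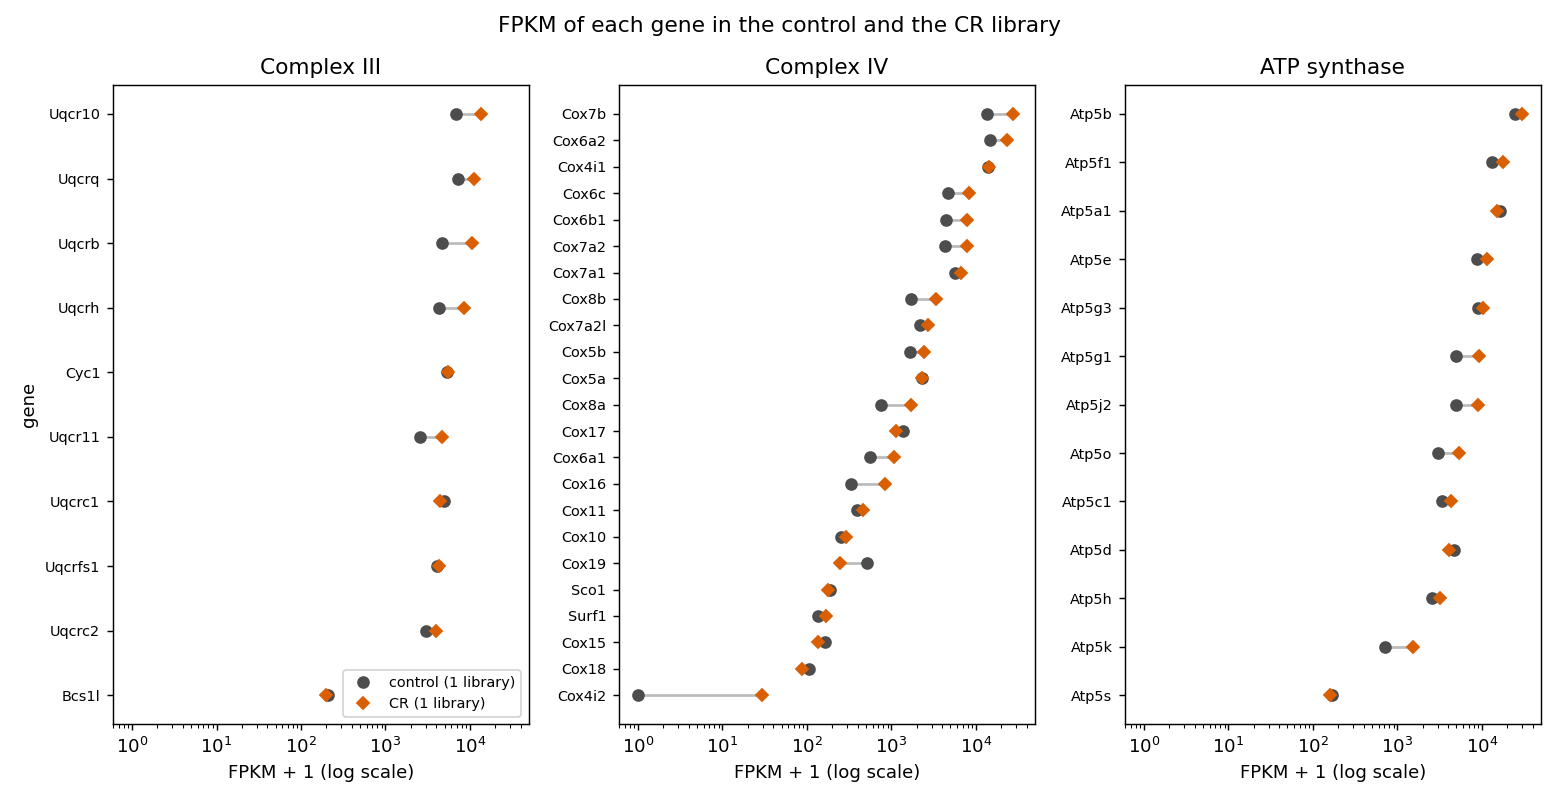
FPKM + 1 of each gene other than Cox4nb and Atp5sl (log axis) in the control library (grey circles) and the CR library (orange diamonds), by complex, with genes ordered by their CR value. The diamonds lie to the right of the circles for the small complex III subunits and for Cox6 to Cox8, and on top of them for Cyc1, Cox4i1 and Cox5a; Cox4i2 was listed at 0 in the control library.

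The genes of complex III divided by role. Its 4 nuclear core genes differed little between the libraries. Uqcrc1, the larger core protein of the matrix side (mm9 chromosome 9, 108838125 to 108851686), stood at 4904 and 4454 FPKM, so the CR value was 1.10-fold lower; an unnamed locus on its opposite strand had higher values than Uqcrc1 itself, as given with the overlapping loci. Cyc1, the cytochrome c1 that passes electrons on to cytochrome c (chromosome 15, 76173953 to 76176691), stood at 5406 and 5457 FPKM. Uqcrfs1, the Rieske iron-sulfur protein (chromosome 13, 30632181 to 30637257), stood at 4021 and 4275 FPKM. Uqcrc2, the partner of Uqcrc1 in the core (chromosome 7, 127778686 to 127803043), had the largest ratio of the core, 2981 and 3969 FPKM or 1.33-fold. The median log2 ratio of the core was 0.05.

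The 5 accessory subunits of complex III, which surround the core, all had CR values at least 1.5-fold higher, against 16.4% of all genes. Uqcrb, a subunit that contacts the ubiquinone site (chromosome 13, 67001553 to 67006286), stood at 4721 and 10577 FPKM, a fold of 2.24. Uqcrh, the hinge protein between cytochrome c1 and cytochrome c (chromosome 4, 115739568 to 115747846), stood at 4297 and 8553 FPKM, a fold of 1.99. Uqcr10, a membrane subunit (chromosome 11, 4601813 to 4604363), stood at 6881 and 13601 FPKM, a fold of 1.98. These 3 genes were at or near a doubling, while the remaining accessory genes had smaller ratios. Uqcr11 (chromosome 10, 79865595 to 79869582) stood at 2556 and 4705 FPKM and Uqcrq (chromosome 11, 53242450 to 53244333) at 7142 and 11131 FPKM, folds of 1.84 and 1.56. The median log2 ratio of the 5 genes was 0.98, and their range (0.64 to 1.16) did not overlap that of the core (-0.14 to 0.41). These role groups were chosen after the values were seen, so the separation is no test of them. The groups also differ in coding length, 168 to 333 nt for the accessory genes and 822 to 1440 nt for the core. In summed FPKM the core stood at 17312 and 18154 and the accessory genes at 25597 and 48566. Bcs1l, the chaperone that inserts the Rieske protein, stood at 207 and 194 FPKM.

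**Figure D2:**
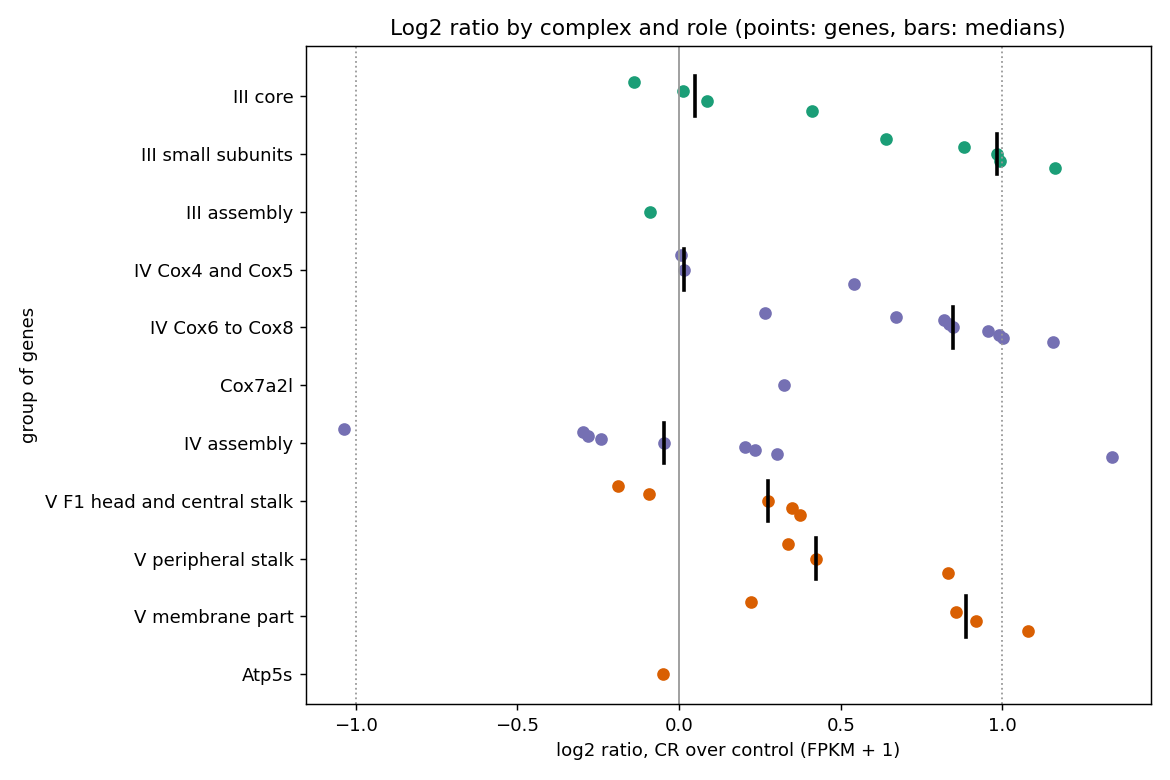
Log2 ratio of CR over control (x axis, FPKM + 1) for each gene, grouped by complex and role (y axis); each point is a gene and each black bar the median of a group of more than 1 gene. Dotted lines mark 2-fold; Cox4i2, listed at 0 in the control library, and the name matches Cox4nb and Atp5sl are not drawn. The small complex III subunits and Cox6 to Cox8 lie mostly near 1, and the complex III core lies around 0. The complex IV assembly factors lie on both sides of 0, with Cox16 and Cox19 beyond the dotted lines.

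In complex IV, Cox4i1 and Cox5a were nearly equal in the libraries. Cox5b had a higher ratio, below those of all Cox6 to Cox8 genes except Cox7a1. Cox4i1, the ubiquitous form of the largest nuclear subunit (chromosome 8, 123192154 to 123202232), stood at 14088 and 14137 FPKM. Cox5a, a subunit on the matrix side (chromosome 9, 57368190 to 57380358), stood at 2309 and 2331 FPKM. Cox5b, a zinc-binding subunit (chromosome 1, 36748324 to 36750233), stood at 1662 and 2419 FPKM, a fold of 1.45. Cox4i2, the isoform known from lung and from hypoxia, was listed at 0 and 28.6 FPKM; an FPKM of 0 may be a failed estimate, so no fold is given, but it is 1 of the 6 genes counted as at least 2-fold higher.

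All 9 measured genes of the Cox6, Cox7 and Cox8 subunits were higher in the CR library, 8 of them by at least 1.5-fold. Their median log2 ratio was 0.85, and Cox7c was not measured. Over all genes the shares were 47.9% and 16.4%, and over the 331 other genes of at most 450 nt 77.6% and 28.4%. Cox7b (chromosome X, 103211039 to 103224873), a small membrane subunit, stood at 13685 and 27156 FPKM, a fold of 1.98, and was the most abundant complex IV gene of the CR library. Cox6b1 (chromosome 7, 31401990 to 31411184), which faces the intermembrane space near the cytochrome c site, stood at 4400 and 7852 FPKM. Cox6c (chromosome 15, 35861731 to 35868001), another membrane subunit, stood at 4655 and 8220 FPKM. The folds of this last pair were 1.78 and 1.77. Cox7a2l (chromosome 17, 83901257 to 83913673), a relative of the Cox7a subunits that joins complexes III and IV into supercomplexes, stood at 2174 and 2724 FPKM, a fold of 1.25.

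Within pairs, the muscle isoform of complex IV had the smaller ratio. Each of the 3 families with a heart and skeletal muscle isoform had a smaller log2 ratio for that isoform than for the ubiquitous one, by 0.28 in Cox6a, 0.58 in Cox7a and 0.15 in Cox8. Cox6a2, the muscle form (chromosome 7, 135348949 to 135349958), stood at 14763 and 23507 FPKM. The ubiquitous Cox6a1 (chromosome 5, 115795652 to 115798964) stood at 560 and 1085 FPKM. Cox6a2 made up 96.3% of the summed Cox6a level under the control diet and 95.6% under CR, so the muscle form dominated in both. Cox7a1, the muscle form (chromosome 7, 30969167 to 30971050), stood at 5588 and 6717 FPKM, a log2 ratio of 0.27 and the smallest among the Cox6 to Cox8 genes. The ubiquitous Cox7a2 (chromosome 9, 79602847 to 79607660) stood at 4328 and 7787 FPKM, a fold of 1.80. The muscle share of Cox7a was thus 56.4% under the control diet and 46.3% under CR, and the order of these isoforms was opposite in the libraries. Cox8b, the muscle form (chromosome 7, 148083316 to 148087069), stood at 1697 and 3402 FPKM. The ubiquitous Cox8a (chromosome 19, 7289556 to 7292106) stood at 757 and 1688 FPKM. The muscle share of Cox8 was 69.2% and 66.8%; Cox8b had the largest ratio of the 3 muscle isoforms, and its value is uncertain because of an overlapping locus. The muscle isoform genes all lie on chromosome 7.

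**Figure D3:**
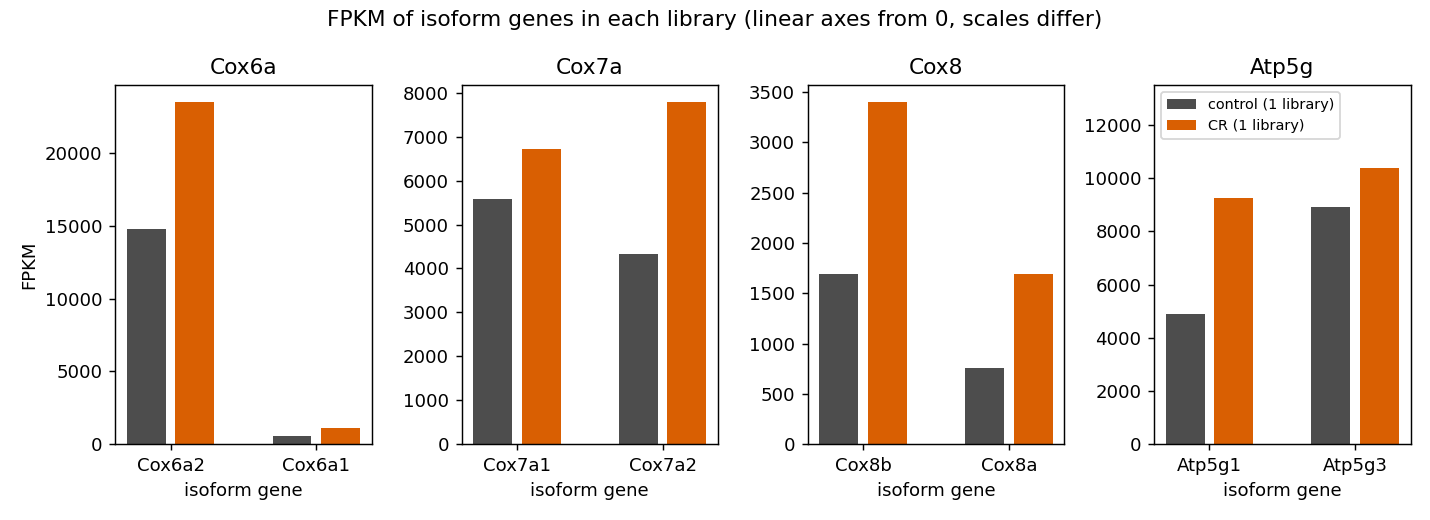
FPKM (linear axes that start at 0, with a scale of their own in each panel) of isoform genes in the control library (grey) and the CR library (orange): muscle isoform first and ubiquitous isoform second for Cox6a, Cox7a and Cox8, and Atp5g1 and Atp5g3 for the c-subunit. Every bar pair is higher in the CR library, Cox7a2 passes Cox7a1 there, and Cox6a2 stays far above Cox6a1 in both.

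In the ATP synthase, genes of the catalytic head differed less between the libraries than most genes of the membrane part. Atp5b, the catalytic beta subunit (chromosome 10, 127520337 to 127527444), stood at 24407 and 29552 FPKM, a fold of 1.21. Atp5a1, the alpha subunit (chromosome 18, 78012507 to 78021610), stood at 16215 and 15204 FPKM, a 1.07-fold lower CR value. Atp5d, the delta subunit of the central stalk (chromosome 10, 79604823 to 79608563), stood at 4710 and 4136 FPKM, a 1.14-fold lower CR value. The alpha and delta genes were the only ATP synthase subunits measured here with a lower value in the CR library. Atp5c1, the gamma subunit that turns inside the head, stood at 3383 and 4314 FPKM, and Atp5e, the epsilon subunit, at 8852 and 11478 FPKM. The 5 F1 genes had a median log2 ratio of 0.28, and none reached 1.5-fold.

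The peripheral stalk holds the head still against the turning rotor. Atp5o, which links the stalk to the top of the head (chromosome 16, 91925349 to 91931880), stood at 2999 and 5345 FPKM, a fold of 1.78. Atp5f1, the b subunit (chromosome 3, 105745615 to 105763166), stood at 13228 and 17739 FPKM, a fold of 1.34. Atp5h, the d subunit (chromosome 11, 115277004 to 115281819), stood at 2556 and 3229 FPKM, a fold of 1.26. Of the membrane part, Atp5k, the e subunit that takes part in dimer formation (chromosome 5, 108862262 to 108864002), had the largest ratio of the ATP synthase, 718 and 1517 FPKM or 2.11-fold. Atp5j2, the f subunit (chromosome 5, 145944430 to 145952462), stood at 4928 and 8925 FPKM, a fold of 1.81.

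The c-subunit of the rotor ring is encoded by several genes whose mature protein is the same and whose import signals differ. Atp5g1 (chromosome 11, 95933222 to 95937008) stood at 4889 and 9240 FPKM, a fold of 1.89. Atp5g3 (chromosome 2, 73746506 to 73749488) stood at 8897 and 10385 FPKM, a fold of 1.17. Atp5g3 was the more abundant of this pair in both libraries, but the share of Atp5g1 in their sum was 35.5% under the control diet and 47.1% under CR. Atp5g2 was not measured, so these are not shares of all c-subunit transcript. Atp5s, the coupling factor B, stood at 166 and 160 FPKM.

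Assembly factors were far less abundant than subunits and had no common direction. The median level of the 10 genes was 230 and 221 FPKM, against 4682 and 7252 FPKM for the 34 subunit genes. Their median log2 ratio was -0.07, with 4 higher and 6 lower. Cox16, which helps to assemble the mitochondrially encoded subunit that receives the electrons (chromosome 12, 82571691 to 82586110), stood at 334 and 847 FPKM, a fold of 2.53 and the largest among the members above 0 in both libraries. Cox19, a factor of copper handling in the intermembrane space (chromosome 5, 139812195 to 139821136), stood at 507 and 247 FPKM, a 2.05-fold lower CR value and the lowest ratio of all members. Cox17, the copper chaperone of the intermembrane space and the most abundant assembly factor, stood at 1355 and 1147 FPKM, and Sco1, which passes copper on, at 184 and 178 FPKM. Cox10 and Cox15, the enzymes that make heme a, had levels of 254 and 293 FPKM (Cox10) and 165 and 134 FPKM (Cox15), so this pair had opposite signs. Cox11 (393 and 463 FPKM), Surf1 (136 and 168) and Cox18 (105 and 86.1) lay within 2-fold as well. Cox4nb stood at 208 and 238 FPKM, with its locus ending 141 bases before that of Cox4i1 begins, and Atp5sl at 242 and 210 FPKM.

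The division between small and large subunits moved together with coding length, and most other genes with a short coding part were higher in the CR library too. Coding lengths came from the GENCODE M21 annotation of a later build and were found for all 48 members. Across the 33 subunit genes above 0 in both libraries, Pearson's r of log2 coding length with the log2 ratio was -0.67, and Spearman's rho was -0.67; that with the mean FPKM was weaker, with a rho of -0.14. Among 331 other genes whose mean reached 300 FPKM, with a value above 0 in both libraries and a coding length of at most 450 nt, 77.6% were higher in the CR library, 74 genes were lower and 28.4% were at least 1.5-fold higher, with a median log2 ratio of 0.36. The 3730 other genes of that level with a longer coding part had a median of -0.03. Of the subunit genes with a coding length of at most 450 nt, 21 of 21 were higher and 16 of 21 were at least 1.5-fold higher, with a median of 0.86. In the shortest class, up to 300 nt, the 15 subunit genes had a median of 0.86 and the 101 other genes one of 0.41, and 13 of the 15 lay above that. With the median of other genes in the same length class subtracted, the median log2 ratio of the small complex III subunits was 0.58, that of Cox6 to Cox8 was 0.44 and that of the membrane part of the ATP synthase 0.54, while the complex III core (-0.00018) and F1 (-0.0024) lay at 0. With that subtraction 10 members were at least 1.5-fold higher and 2 at least 2-fold higher, and Cox7a1 was among 6 members whose sign turned. Centring within equal classes of transcript length, in place of coding length, gave medians of 0.83 for the small complex III subunits, 0.69 for Cox6 to Cox8 and -0.11 for the complex III core.

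**Figure D4:**
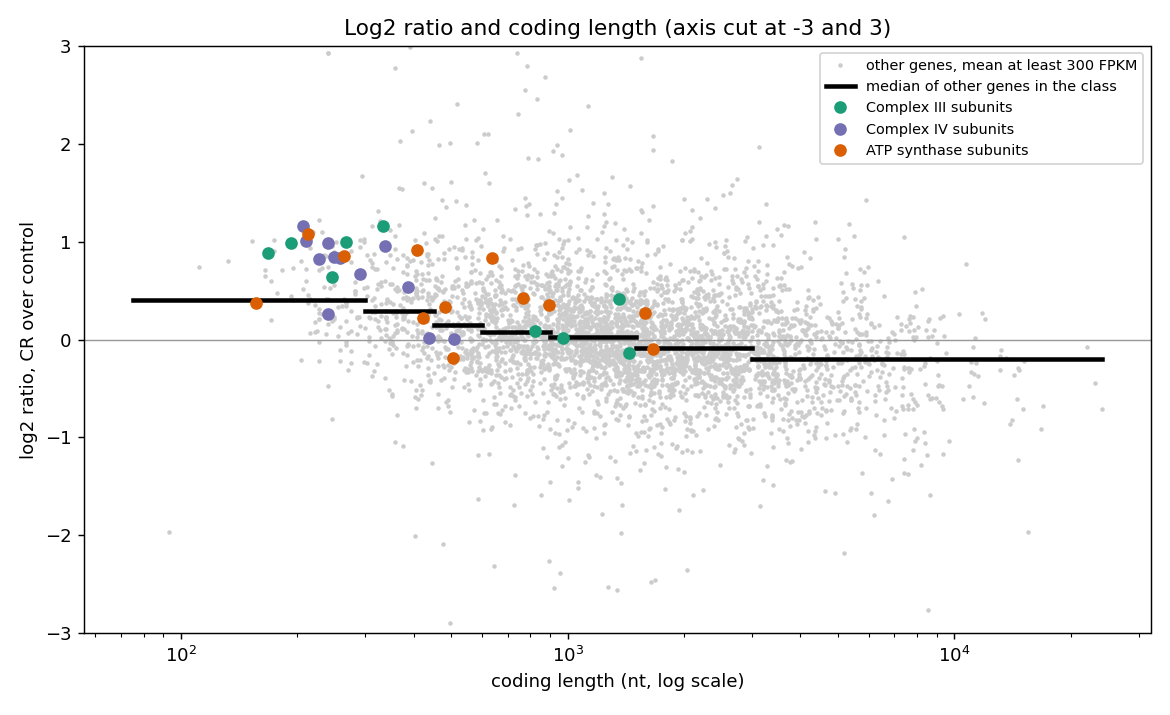
Log2 ratio of CR over control (y axis) against coding length in nt (log x axis) for subunit genes above 0 in both libraries, coloured by complex, over other genes whose mean reached 300 FPKM (small grey points). Black lines give the median of the other genes in each length class, which runs from 0.41 in the shortest class to -0.19 in the longest; 24 other genes lie beyond the y axis. Most short subunit genes lie above the black line of their class.

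Complexes I and II and the tricarboxylic acid cycle were listed in the same way for comparison, with no test between the lists. Of 34 complex I subunit genes 33 were higher, 13 at least 1.5-fold and 3 at least 2-fold, with a median log2 ratio of 0.44. Over all genes the shares were 47.9%, 16.4% and 8.01%, so the count past 2-fold was near that of all genes. In that list too the genes of at most 450 nt had the higher median, 0.57 against 0.29 for the longer ones. All 4 complex II genes were higher and none reached 1.5-fold, with a median of 0.22. The 13 citrate cycle genes had a median of 0.13, with 11 higher and 2 at least 1.5-fold higher. Further factors of complexes III to V outside the symbol rule gave a median of 0.11 over 17 genes, with 12 higher and 5 lower. Of these, 4 were at least 1.5-fold higher, against 16.4% of all genes. Usmg5, a small membrane subunit of the ATP synthase, had the highest ratio of that list, at 412 and 836 FPKM. Ndufa4, a subunit now placed in complex IV, stood at 5786 and 11236 FPKM, and the assembly factor Lyrm7 had the lowest ratio, at 178 and 116 FPKM.

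Of 11 regulators of respiratory chain genes 4 were higher and 7 lower, with a median log2 ratio of -0.12 and none past 2-fold. Over all genes 47.9% were higher, with a median of -0.03. The regulators have a median coding length of 1266 nt, and other genes of 900 to 1500 nt had a median of 0.02. Ppargc1a, the coactivator PGC-1alpha that drives mitochondrial biogenesis, was the most abundant of them in the control library and had the lowest ratio, at 902 and 488 FPKM. Esrrg, an estrogen-related receptor of oxidative fibres, had the highest, at 147 and 225 FPKM. Nrf1, which binds many promoters of respiratory chain genes, stood at 175 and 182 FPKM, and Gabpa, the ETS-family DNA-binding part of the factor known as NRF2, at 514 and 637 FPKM.

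RefSeq promoter windows of build GRCm38.p6, from 250 bases before to 50 bases after a start site, matched 36 of the 48 members by symbol or synonym, with 40 windows. They were searched on both strands for the motifs of factors known to act on these genes; matches of different motifs did not overlap. The ETS motif CCGGAAGT was in 8 of 40 windows (20.0%), against 3.89% of all 32851 windows and 8.03% of the 10730 windows of other measured genes. The NRF1 motif GCGCATGC was in 4 windows (10.0%), against 2.71% and 5.17%. The ERR motif TCAAGGTCA was in 1 window, that of Atp5g3, and the E-box CAGCTG in 2, those of Atp5b and Cox8b. The shares of the ERR motif were 2.5% of member windows, 0.423% of all and 0.27% of the other measured ones, and those of the E-box 5.0%, 16.3% and 15.5%. The MEF2 consensus was in none of the member windows, against 3.19% and 1.89%. The ETS matches lay in genes with high and low ratios alike: Uqcr11, Uqcrh, Cox8a, Cox16 and Atp5h, and also Bcs1l, Cox10 and Cox15. A match is a string of letters and not a measured binding site.

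The promoters of the Cox7a and Cox8 isoform pairs and of Cox6a1 are shown because the isoforms differ in tissue use, and that of Uqcr11 because it was the member window with both an ETS and an NRF1 match. Each line gives 200 bases, from 190 before to 10 after the start site, 5′ to 3′ on the gene's strand, with motif matches in capitals. Uqcr11 (chr10:80406812-80407011, minus strand) has the ETS match from -66 and an NRF1 match across the start site. Cox6a1 (chr5:115348949-115349148, minus strand) has overlapping NRF1 matches on both strands from -162. Cox8a (chr19:7217607-7217806, minus strand) has an ETS match from -6, and the muscle isoform Cox8b (chr7:140900437-140900636, minus strand) an E-box from -19; each of them has another match after the printed bases. Cox7a1 (chr7:30183981-30184180, plus strand) and Cox7a2 (chr9:79759844-79760043, minus strand) have none of the motifs in these windows.
Uqcr11: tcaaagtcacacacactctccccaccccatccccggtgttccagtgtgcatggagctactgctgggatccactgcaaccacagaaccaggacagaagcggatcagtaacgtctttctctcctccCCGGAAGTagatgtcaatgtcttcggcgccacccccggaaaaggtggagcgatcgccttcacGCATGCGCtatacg
Cox6a1: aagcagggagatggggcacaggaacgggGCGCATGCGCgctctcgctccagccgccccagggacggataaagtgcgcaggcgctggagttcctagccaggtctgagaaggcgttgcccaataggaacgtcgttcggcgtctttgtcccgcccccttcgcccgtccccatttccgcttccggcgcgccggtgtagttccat
Cox8a: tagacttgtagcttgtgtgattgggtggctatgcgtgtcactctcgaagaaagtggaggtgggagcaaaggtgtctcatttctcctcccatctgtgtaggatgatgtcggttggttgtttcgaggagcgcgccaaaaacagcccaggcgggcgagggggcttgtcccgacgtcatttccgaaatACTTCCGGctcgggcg
Cox8b: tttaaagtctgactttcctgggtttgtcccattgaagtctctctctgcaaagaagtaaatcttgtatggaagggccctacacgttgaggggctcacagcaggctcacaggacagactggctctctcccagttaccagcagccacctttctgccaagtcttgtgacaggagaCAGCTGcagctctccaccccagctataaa
Cox7a1: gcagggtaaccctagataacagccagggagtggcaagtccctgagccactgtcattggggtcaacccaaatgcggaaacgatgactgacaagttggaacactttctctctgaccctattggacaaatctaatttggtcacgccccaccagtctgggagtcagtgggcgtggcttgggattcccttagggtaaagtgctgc
Cox7a2: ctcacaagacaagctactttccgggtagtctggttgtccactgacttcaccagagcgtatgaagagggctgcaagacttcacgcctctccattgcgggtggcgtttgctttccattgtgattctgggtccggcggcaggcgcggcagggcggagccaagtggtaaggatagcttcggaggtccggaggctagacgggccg

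Several members share their locus with other transcripts, and the library kit as described does not mark strand. Loci of 18 members overlapped another locus of the table, 10 of them an unnamed one and 11 a named one. An unnamed locus on the opposite strand of Cox8b stood at 5161 and 11079 FPKM, above Cox8b itself, with a log2 ratio of 1.10. Within Uqcrc2, 6 unnamed loci on the opposite strand stood between 460 and 2762 FPKM in the control library, and 5 of the 6 were higher in the CR library, as was Uqcrc2. An unnamed locus opposite to Cox6b1 stood at 2811 and 6853 FPKM. Opposite to Uqcrc1, an unnamed locus stood at 7061 and 7778 FPKM, above Uqcrc1, and all 3 unnamed loci there were higher in the CR library, whereas Uqcrc1 was lower. Reads cannot be assigned between the strands, so the values of genes with an overlapping locus are uncertain. The 10 with an unnamed one are Cox8b, Uqcrc2, Cox6b1, Uqcrc1, Atp5a1, Atp5b, Atp5f1, Cox15, Cox16 and Cox19. For Cox19 the overlapping loci lie on the same strand or have no strand given. Named loci set the same limit: Surf1, at 136 and 168 FPKM, overlaps Rpl7a of the opposite strand, at 222 and 167 FPKM. Cox7b overlaps Atp7a of the same strand, which stood at 174 and 48.4 FPKM, far below Cox7b. Cox6a2 lies within the locus of Itgad, an integrin of the opposite strand that stood at 136 and 54.2 FPKM, far below Cox6a2. Without the 18 overlapping members the median log2 ratio of the remaining 30 was 0.46. Small subunit genes also have processed pseudogenes elsewhere in the genome that can share reads with them.

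Markers of fibre types and of other cell types differed between the libraries as well. All 10 slow fibre markers had CR values at least 2-fold higher, and their summed level was 16431 and 135634 FPKM. Of 9 measured fast fibre markers 7 were higher, with a sum of 687214 and 1098210 FPKM and a median log2 ratio of 0.58, so fast muscle transcripts were abundant in both libraries. Myh2 was listed at 0 in both libraries, and Myh1 and Myh4 had no single-symbol locus. The fast sum thus holds no myosin heavy chain, whereas the slow sum holds Myh7. White adipocyte markers summed to 4191 and 19358 FPKM, with 9 of 10 at least 2-fold higher and Adrb3 listed at 0 in the control library. Brown adipocyte markers, of a tissue rich in mitochondria that uses Cox7a1 and Cox8b, summed to 167 and 833 FPKM, with 6 of 6 measured genes at least 2-fold higher. The control library listed 0 for Ucp1, Otop1 and Prdm16, while Ucp1 reached 189 FPKM in the CR library. Endothelial markers summed to 1710 and 2489 FPKM (6 of 6 higher), macrophage markers to 336 and 373 FPKM (3 of 4 higher) and tendon markers to 1913 and 999 FPKM (5 of 6 lower, Tnc listed at 0 in the CR library). The part of any of these cell types in the ratios of the respiratory chain genes was not tested. In whole tissue, fewer cells of a type and less RNA per cell cannot be told apart.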

How the data were processed

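Poly(A) RNA of 1 control and 1 CR library of mouse thigh muscle was made into paired-end libraries from 10 µg of total RNA with fragments of about 200 nt and reads of 76 bp, per the labels' protocols. Build mm9, TopHat 1.2.0, Cufflinks and Cuffdiff are named in the submitters' processing notes; the sources used here give no annotation, options or filters. Each value is a locus's FPKM as deposited by the authors, per the file headers; the lowest value in both columns is exactly 1, taken as 1 added to each FPKM, and 1 was subtracted. Depth is unknown, so no counting interval is given, and the design of 1 library in each group allows no test.

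Loci of 1 symbol were summed per symbol (10543 genes; no member had more than 1 locus). Genes whose mean reached 1 FPKM entered, and the log2 ratio of FPKM + 1 was taken with no further scaling. Every member is named. The members and lists were chosen with earlier results of these data known. The role groups, the 450 nt limit, the 300 FPKM limit and the promoters shown were chosen after the values were seen. Coding lengths (longest, without the stop codon) and median transcript lengths came from GENCODE M21 transcripts paired with RefSeq accessions, by symbol or RefSeq synonym, covering 97.3% of genes, and locus positions stayed in mm9. Python 3.11.15, numpy 2.4.6, pandas 2.3.3, scipy 1.17.1 and matplotlib 3.10.9 were used. The alternatives changed the pseudocount (0.1 or 5 FPKM) or the filter (none, 10 or 100 FPKM); others were centring on the median gene or within equal classes of transcript length, equal sums without the 50 most abundant genes, the largest locus of a symbol, and leaving out members with overlapping loci; chosen after seeing the data were centring within classes of coding length, a filter at 300 FPKM, leaving out Cox4i2, and subunits only.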

Additional observations from a re-analysis of the deposited data

Results flagged for a closer look

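Loci outside the comparisons also hold genes of these complexes. The unnamed loci that span the mitochondrial genome, which encodes cytochrome b, the catalytic complex IV subunits and membrane subunits of the ATP synthase but also complex I subunits and ribosomal RNAs, stood higher in the CR library: the plus-strand locus at 57901 and 104224 FPKM and the minus-strand locus at 41858 and 71609 FPKM, with reads not assignable between the strands or among these genes. A locus that merges Atp5j, a peripheral stalk subunit of the ATP synthase, with LOC654426 stood at 3274 and 5096 FPKM, a fold of 1.56. The locus that merges the copper factor Sco2 with its neighbour Tymp was lower, at 213 and 131 FPKM.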

How the results depend on the processing

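Medians that changed by less than 0.1 on the log2 scale and counts within 1.5 times were taken as unchanged. Pseudocounts, filters up to 100 FPKM, centring on the median gene and the largest locus met this for every median, count and isoform difference, the largest shift in a count being 9 rather than 6 members at least 2-fold higher after centring on the median gene. With equal sums the complex III core median turned from 0.05 to -0.023, with Cyc1, Cox4i1 and Cox5a below 0. Centring within equal classes of transcript length gave -0.11 for that core, 0.83 for the small complex III subunits, 0.69 for Cox6 to Cox8 and 0.22 for the ATP synthase. Centring within classes of coding length gave -0.00018 for the core, -0.0024 for F1, 0.58, 0.44 and 0.54 for the small complex III subunits, Cox6 to Cox8 and the ATP synthase membrane part, 0.31 for complex III, -0.40 for the Cox6a isoform difference, 10 members at least 1.5-fold and 2 at least 2-fold higher. Without overlapping members the medians were 0.46 for all members, 0.76, 0.43 and 0.60 for complex III, complex IV and the ATP synthase and 0.094 for F1; fewer genes entered, with 24 higher and 0 at least 2-fold lower, and the Cox6a and Cox8 differences could not be formed. The filter at 300 FPKM gave 0.48 for all members, 0.64 for complex III and 0.67 for complex IV. Subunits only gave 0.66, 0.64 and 0.84 for the same, with 0 at least 2-fold lower. The cause of the shifts was not tested beyond the change in the genes that enter. No paired analysis was possible because each group has 1 library. Unknown depth and the absence of replicates limit every value.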
